A study of Mus musculus with 8 samples.

Results

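Resf1 and 9 other genes that keep retroelements silent were followed by bulk RNA sequencing of heart tissue from males of the inbred mouse strain 129/Sv. The study set a group with chronic kidney disease, fed 0.15% adenine for 13 weeks, against a group that ate a standard diet for as long, with 4 libraries each. The latter are titled Sham and are called controls here, since no operation is described. No mutation, transgene or further agent is given for either group, the age of the animals is not stated, and whether each library stands for its own animal is not stated, which makes every spread below one between libraries. The 10 genes were picked by symbol out of 27304 in the count table: Resf1 for its change in this same comparison, and Setdb1, Trim28, Atf7ip, Morc2a, Mphosph8, Cbx5, Suv39h1, Dnmt1 and Uhrf1 as known silencing factors, with earlier results in view. Their values in adenine against control are therefore a description without a test.

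Retroelements are mobile sequences that make up a large part of the mouse genome, and most are held silent by heterochromatin. KRAB zinc finger proteins bind them and bring in TRIM28, a scaffold that recruits SETDB1, a methyltransferase which marks histone H3 at lysine 9. RESF1 binds SETDB1 and supports this silencing, which has been studied mostly in embryonic stem cells, and HP1 proteins, the HUSH complex and DNA methylation help to keep the silent state. The table counts reads per gene, so the retroelements themselves were not analysed here.

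Total counts ran from 15626620 in adenine 2 to 33886385 in control 2, and the 10 genes drew 56 to 2573 reads each per library, of which 56 were for Uhrf1 in control 2. Of all genes, 20093 passed a low-count filter and were tested, and all 10 silencing genes were among them. Cardiomyocyte markers (6 genes, among them Myh6 and Tnnt2) summed to 26356 CPM in adenine 3 and to 39246 to 51586 CPM in the other libraries. RNA of heart muscle was thus plentiful in each. In adenine 3 Myh6 was at 7094 CPM, against 15483 CPM or more in every other library, while Tnnt2 lay within the control range. CPM are read counts relative to library size, which was scaled with TMM factors. 2 features of the libraries bear on what follows. Genes of low abundance mostly had positive fold changes: the median log2 fold change, adenine minus control, was 0.80 over the 4071 genes with a mean under 1 CPM, 0.58 over the 4683 genes from 1 to 4 CPM, and -0.15 over the 4808 genes from 16 to 64 CPM. Adenine 3 stood apart in several cell type markers. It did so in macrophage markers, whose 8 genes summed to 2628 CPM. Their sum was 294 to 447 CPM in adenine 1, 2 and 4, and the control sums lay between 370.3 and 629 CPM. Fibroblast markers (7 genes) summed to 1148 to 1746 CPM in the controls and to 635 to 976 CPM in adenine 1, 2 and 4. They summed to 2115 CPM in adenine 3, where Col1a1 was at 433 CPM and Col1a2 at 958 CPM. Of the 7, only these 2 collagen genes had a positive log2 fold change. Pdgfra, Tcf21, Dpt and Dcn were lower on adenine without overlap, adenine 3 included, as were 3.84% of all genes tested. Lum was lower with overlap (log2 fold change -1.03). In the controls and on adenine, endothelial markers (6 genes) summed to 529.9 to 685.8 and 398 to 544 CPM, and red cell markers (4 genes) to 7005 to 26042 and 1657 to 3083 CPM. Sums of 2 rare cell types were higher on adenine without overlap, as Resf1 was. Most of their genes had a mean under 4 CPM, while Resf1 had a mean of 51.5 CPM. Of all genes tested, 94.0% of those under 1 CPM and 81.9% of those from 1 to 4 CPM had a positive fold change. Lymphocyte markers (8 genes) were at 8.15 to 12.0 CPM in the controls and 14.0 to 23.2 CPM on adenine. Neutrophil markers (5 genes) were at 3.39 to 6.22 and 7.25 to 13.1 CPM. Of the 8 lymphocyte genes only 1, Il7r, was by itself higher without overlap, and it had 15.2 of the 22.9 CPM in adenine 3. Of the 5 neutrophil genes, 3 were by themselves higher without overlap. They included Mmp8 and Retnlg, with means of 0.572 and 0.241 CPM in the controls. Of all genes tested, 3.45% were higher without overlap. Mitochondrial genes took 41.0% and 41.9% of counts in adenine 1 and 2, and 31.0 to 35.6% in the other libraries. The part of these cell types and shares in the results below was not tested.

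The stretches upstream of Resf1 and of its partner Setdb1 are shown because one of these genes differed widely between the diets and the other hardly at all. Each line gives the 250 bases before the annotated start, 5′ to 3′ on the gene's own strand, from RefSeq on GRCm38.p6, with CpG dinucleotides, the sites of DNA methylation, in capitals. Resf1 is from chr6:149309164-149309413 on the plus strand and Setdb1 from chr3:95357203-95357452 on the minus strand.
Resf1: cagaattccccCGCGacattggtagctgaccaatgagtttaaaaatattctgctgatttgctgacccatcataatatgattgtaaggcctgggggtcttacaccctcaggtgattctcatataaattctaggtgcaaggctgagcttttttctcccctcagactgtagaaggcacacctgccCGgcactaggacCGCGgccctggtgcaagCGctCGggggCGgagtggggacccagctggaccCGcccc
Setdb1: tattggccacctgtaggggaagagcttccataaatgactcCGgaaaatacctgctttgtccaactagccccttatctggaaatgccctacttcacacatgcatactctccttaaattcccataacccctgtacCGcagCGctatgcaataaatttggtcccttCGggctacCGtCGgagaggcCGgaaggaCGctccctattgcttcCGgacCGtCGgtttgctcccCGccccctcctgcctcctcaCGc

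The Resf1 window held 9 CpG and the Setdb1 window 13, against a median of 6 over 32851 promoter windows of the same length, and both were 54.4% G or C. Each window was searched on both strands for 6 short motifs, none of which contains another. Resf1 had 2 matches to CCAAT, which 33.8% of all windows hold, and 2 to GGGCGG, which 32.7% hold. Setdb1 had 1 of each. Neither window held AGAACA, the core of glucocorticoid receptor elements (16.1% of windows), CACGTG, an E-box (6.02%), TGTTTAC, bound by forkhead factors (3.17%), or the E2F motif (0.417%). These matches describe letters only.

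Resf1 (ENSMUSG00000032712) lies on chromosome 6 from 149309414 to 149335663 on GRCm38, and no other annotated gene shares its exons. It was at 20.8, 21.8, 26.4 and 24.5 CPM in control 1 to control 4, on 641 to 708 reads. In adenine 1 to adenine 4 it was at 86.6, 70.8, 81.9 and 79.0 CPM, on 1158 to 2573 reads. The lowest adenine library was thus far above the highest control, and the libraries within a diet lay close together, with a coefficient of variation of 10.9% in the controls and 8.32% on adenine. The log2 fold change was 1.77 (SE 0.14), a 3.41-fold difference. Of the 4808 genes from 16 to 64 CPM, among which Resf1 falls with its mean of 51.5 CPM, 13 had a higher fold change. With adenine 3 left out the log2 fold change was 1.75, and with the share of olfactory and vomeronasal receptor reads in each library, given below, as a covariate it was 1.82.

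Setdb1, on chromosome 3 from 95323525 to 95357202, encodes the methyltransferase that RESF1 binds. Its levels were 18.6, 18.3, 17.4 and 19.3 CPM in the controls and 21.8, 20.2, 19.0 and 20.0 CPM on adenine. Adenine 3 was below control 4, so the diets overlapped by a small margin, and the log2 fold change was 0.14 (SE 0.12). Its coefficient of variation was 4.45% in the controls, the lowest of the 10 genes there, and 5.64% on adenine, where that of Mphosph8 was lower at 4.87%. Exons of Setdb1 overlap those of Cers2 on the opposite strand over 75 bases, and since no source used here gives the strand setting of the counting, reads in that stretch could belong to either gene. Atf7ip encodes a cofactor that stabilises SETDB1 in the nucleus. It was at 43.1, 49.8, 44.1 and 33.6 CPM in the controls and at 34.6, 43.5, 40.3 and 30.8 CPM on adenine, with the lowest value of each diet in the library numbered 4 and wide overlap. Its log2 fold change was -0.19 (SE 0.16).

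**Figure D1:**
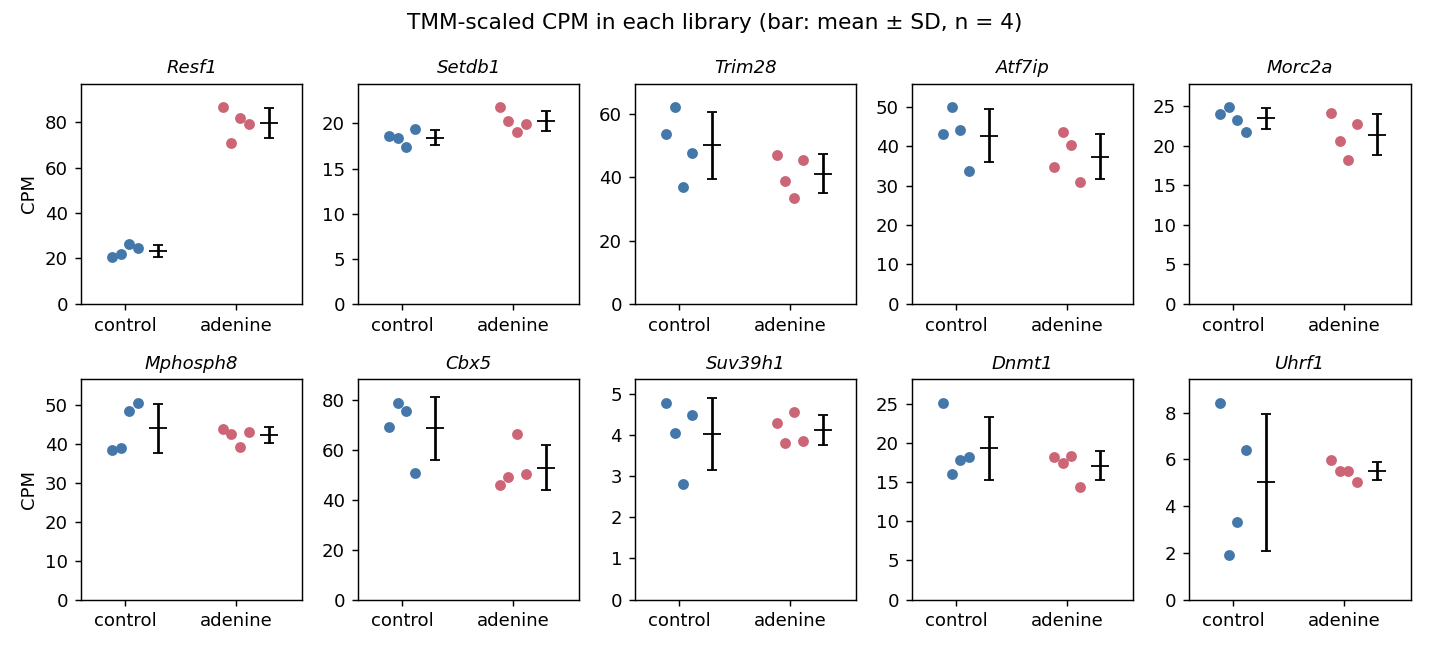
TMM-scaled CPM of the 10 silencing genes in each of the 8 libraries (points, linear axes from 0), with mean and SD (n = 4 per diet) beside them. Only in the Resf1 panel are all 4 adenine libraries, at 70.8 to 86.6 CPM, apart from all 4 controls, at 20.8 to 26.4 CPM.

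Trim28 encodes the scaffold that links KRAB zinc finger proteins to SETDB1. Levels were 53.8, 62.2, 37.0 and 47.7 CPM in the controls and 47.2, 38.9, 33.4 and 45.4 CPM on adenine. Control 3 was lower than 3 of the 4 adenine libraries, and the log2 fold change was -0.28 (SE 0.18). Mphosph8 encodes the chromodomain subunit of HUSH, a complex that silences young LINE-1 elements. It was at 38.6, 38.9, 48.5 and 50.6 CPM in the controls and at 44.0, 42.6, 39.3 and 43.3 CPM on adenine, so that all adenine values fell inside the control range, with a log2 fold change of -0.06 (SE 0.14). Morc2a encodes an ATPase that works with HUSH. Its levels were 24.0, 24.9, 23.3 and 21.7 CPM in the controls and 24.2, 20.6, 18.2 and 22.8 CPM on adenine, and its log2 fold change was -0.13 (SE 0.14). Adenine 2 and adenine 3 were below every control, and adenine 1 and 4 lay within the control range. Exons of Morc2a overlap the long noncoding gene Tug1 on the opposite strand over 483 bases, which limits its value in the same way as that of Setdb1.

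Cbx5 encodes HP1 alpha, which reads methylated lysine 9 of histone H3. It was at 69.3, 78.8, 75.7 and 50.6 CPM in the controls and at 46.1, 49.0, 66.2 and 50.2 CPM on adenine. 3 adenine libraries were below every control, though 50.2 CPM in adenine 4 was close to 50.6 CPM in control 4, and adenine 3 lay among the controls. The log2 fold change was -0.37 (SE 0.17), and -0.51 without adenine 3. Suv39h1, on the X chromosome, encodes the methyltransferase of pericentric heterochromatin. It was among the rarest of the 10 at 4.77, 4.03, 2.79 and 4.47 CPM in the controls and 4.28, 3.79, 4.55 and 3.85 CPM on adenine. These values overlapped throughout, with a log2 fold change of 0.04 (SE 0.23).

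Dnmt1 encodes the methyltransferase that copies DNA methylation at replication, and Uhrf1 the protein that guides it to newly copied DNA. Dnmt1 was at 25.1, 16.1, 17.8 and 18.3 CPM in the controls and at 18.2, 17.4, 18.4 and 14.4 CPM on adenine, with control 1 above all others and a log2 fold change of -0.17 (SE 0.16). Uhrf1 was at 8.41, 1.90, 3.32 and 6.42 CPM in the controls but at 5.96, 5.50, 5.51 and 5.05 CPM on adenine. Its controls thus enclosed all adenine values and had a coefficient of variation of 58.9%, against 6.75% on adenine. The log2 fold change of Uhrf1 was 0.13 (SE 0.36), 0.50 without control 1 and -0.14 without control 2. A list of 18 genes of cycling cells, among them Mki67 and Top2a, ordered the controls in the same way as Uhrf1, with 256 CPM in sum in control 1, 156 in control 4, 124 in control 3 and 103 in control 2. On adenine the list summed to 115, 109, 191 and 91.8 CPM in adenine 1 to adenine 4 and its order was not that of Uhrf1. The part of cycling cells in the spread of Uhrf1 was not tested.

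Of the 10 genes, 1, Resf1, passed an adjusted p under 0.05 in edgeR in the higher direction, where 0.0398% of all genes tested did, and 0 passed in the lower direction, where 0% did. Resf1 was also the only one whose diets did not overlap, a property of 7.29% of all genes tested. At an unadjusted p under 0.05 in edgeR, 1, Resf1, was higher and 1, Cbx5, lower, beside 10.9% and 6.63% of all genes tested. The 10 include the gene that was chosen for this change, so nothing is read from these counts. The median log2 fold change over the 10 was -0.10, against 0.05 over all genes tested, and 4 of the 10 had a positive value. In bulk tissue, fewer cells of a type and less RNA per cell cannot be told apart for any of these genes.

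Levels of different genes can be compared only per length, so RPKM were computed as CPM per kilobase of all annotated exons of a gene, which understates genes whose exons are used in part. In the controls, Resf1 had 2.43 ± 0.264 RPKM (SD, n = 4), close to Dnmt1 with 2.62 ± 0.539, Setdb1 with 2.69 ± 0.120 and Atf7ip with 2.06 ± 0.324, whose ranges in the controls all overlapped that of Resf1. Mphosph8 with 12.3 ± 1.75 RPKM and Trim28 with 12.1 ± 2.55 RPKM were the most abundant and did not differ beyond their spread, followed by Cbx5 with 7.61 ± 1.40 and Morc2a with 3.66 ± 0.208. Uhrf1 with 1.18 ± 0.693 and Suv39h1 with 0.762 ± 0.165 were lowest. On adenine, Resf1 had 8.26 ± 0.687 RPKM. It then had rank 3 of the 10 in adenine 1, 2 and 4 and rank 2 in adenine 3, where it passed Trim28, while its rank was 5 to 7 in the controls.

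The balance of Resf1 to its partner Setdb1 was taken in each library as the ratio of their RPKM. It was 0.795, 0.846, 1.08 and 0.902 in the controls and 2.83, 2.49, 3.06 and 2.82 on adenine. Resf1 mRNA was thus about level with Setdb1 mRNA in each control library and above it in each adenine library. Relative to Atf7ip the mean ratio was 1.21 ± 0.280 in the controls and 4.70 ± 0.941 on adenine (SD, n = 4), and relative to Mphosph8 it was 0.198 ± 0.0123 and 0.702 ± 0.0679. Against each of the 9 partners the adenine ratios were higher than every control ratio. Since Resf1 stands in every ratio, these comparisons restate its own difference and are no separate evidence.

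**Figure D2:**
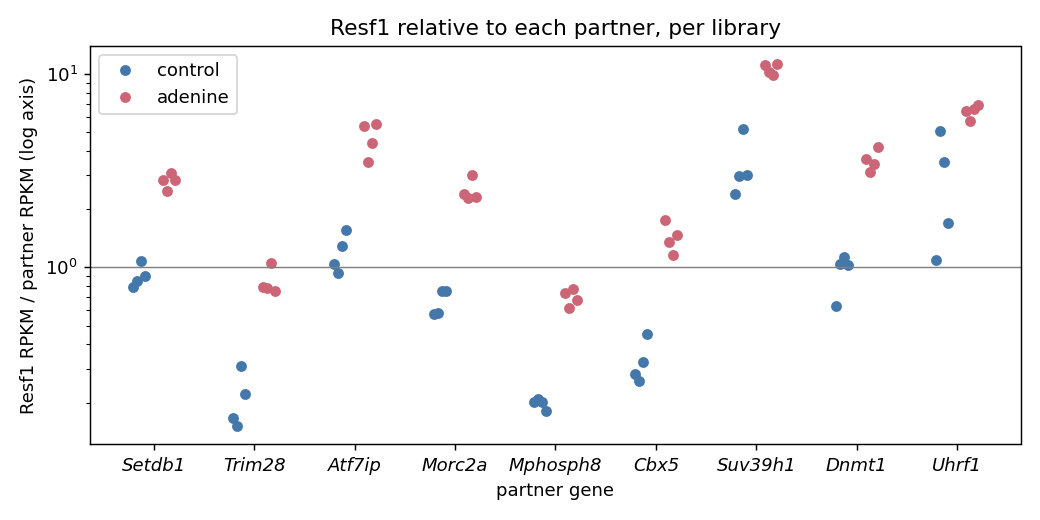
Ratio of Resf1 RPKM to the RPKM of each partner in each of 8 libraries (points, log axis, grey line at 1). For Setdb1 the controls sit at 0.795 to 1.08 and the adenine libraries at 2.49 to 3.06.

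Genes near Resf1 on chromosome 6 were examined because position was not used to choose it. Within 500 kb, 8 further genes were tested, and 0 passed an adjusted p under 0.05 in edgeR or in limma-voom, while 0.0398% of all genes did in edgeR. At an unadjusted p under 0.05 in edgeR, 3 were higher and 0 lower, beside 10.9% and 6.63% of all genes. In DESeq2 1 passed, but DESeq2 called more genes than edgeR, with 153 higher and 175 lower among all genes tested. Amn1, from 149157147 to 149188712 and 121 kb away, had 10.2 ± 0.916 CPM in the controls and 16.5 ± 3.09 CPM on adenine (SD, n = 4). Its diets did not overlap, and its log2 fold change was 0.70 (SE 0.16; edgeR adjusted p = 0.149), but it passed in DESeq2. Etfbkmt, a methyltransferase gene 158 kb away, had 17.1 ± 3.54 and 26.8 ± 8.97 CPM, with a log2 fold change of 0.64 (SE 0.22; edgeR adjusted p = 0.244). Bicd1, which encodes a dynein adaptor and lies 73.2 kb away on the other side, had 7.90 ± 1.56 and 9.11 ± 2.60 CPM, and Dennd5b had 27.2 ± 4.33 and 28.7 ± 4.90 CPM. Log2 fold changes of the 8 neighbours ran from 0.06 in Ipo8 to 0.85 in 3010003L21Rik, an antisense transcript at 0.775 ± 0.277 CPM in the controls. Their median was 0.35, against 0.05 over all genes tested. All 8 were positive, but 5 of 8 were with the receptor share as a covariate, when the median was 0.16. Caprin2, 413.2 kb away, was the other neighbour whose diets did not overlap, and its log2 fold change was 0.43. Of all genes tested, 3.45% were higher without overlap.

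**Figure D3:**
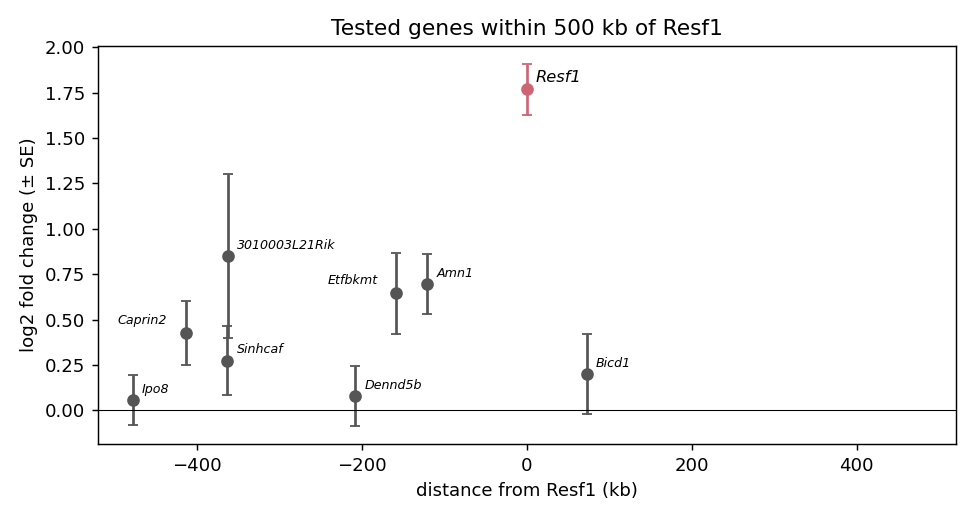
Log2 fold change, adenine minus control, with its SE, of Resf1 (red) and the 8 tested genes within 500 kb (grey), by distance in kb from the nearer end of Resf1. Resf1 stands at 1.77 and its neighbours between 0.06 and 0.85.

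The genes most like Resf1 over the 8 libraries were sought by Pearson's r of log2 CPM among the 16021 tested genes whose mean reached 1 CPM. Since the libraries fall into the 2 diets, this measure mostly finds genes that differ between them. Zbtb25, which encodes a zinc finger protein, came first with r = 0.995, at 5.96 ± 0.172 CPM in the controls and 7.56 ± 0.133 CPM on adenine (SD, n = 4). Its log2 fold change of 0.34 (SE 0.16) did not pass (edgeR adjusted p = 0.288). Myot, a gene of the sarcomeric Z-disc, followed with r = 0.96 and rose by 1.22 (SE 0.16; edgeR adjusted p = 0.0182), and Tent5b, a poly(A) polymerase gene, with r = 0.956 rose by 2.62 (SE 0.34; edgeR adjusted p = 0.0167), both as log2 fold changes. Neither passed with any single control or with adenine 1 left out, and Tent5b did not pass in limma-voom, with log2 fold changes of 1.10 to 1.35 for Myot and 2.54 to 2.74 for Tent5b in these fits. Next came the pheromone receptor gene Vmn1r2 with 0.949 and Hivep3, a zinc finger gene, with 0.948. None of the 9 silencing partners came near these values, the highest r being 0.724 for Setdb1. After subtraction of each diet's mean, so that only the spread within diets remained, the 5 closest genes were others: Fam180a with r = 0.984, AU021092 with 0.979, Adgrl4 with 0.96, and Trim25 and Prxl2b with 0.95 each. These 5 had log2 fold changes between -0.28 and 0.12. An r over 8 libraries, the highest among so many genes, describes these libraries only.

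Further genes came from 9 lists that hold 144 genes besides the 10, of which 133 were tested. The lists cover the silencing machinery, enzymes that oppose it, germline genes, genes derived from retroelements, and restriction factors and sensors. Of the 133, 0 passed in edgeR or in limma-voom, and 1 passed in DESeq2, which called 153 higher and 175 lower among all genes tested. Upper-quartile scaling raised the median over all genes from 0.05 to 0.20, and the negative medians of the methyltransferase, heterochromatin, DNA methylation, demethylase and restriction factor lists given below turned positive with it. At an unadjusted p under 0.05 in edgeR, 13 of the 133 (9.77%) were higher and 9 (6.77%) lower, beside 10.9% and 6.63% of all genes tested. Of the 13, 7 were germline genes, so these pooled shares do not describe the silencing machinery alone. Among the 133, diets did not overlap for 8 in the higher direction and 5 in the lower, beside 3.45% and 3.84% of all genes.

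Among 10 further lysine 9 methyltransferases and cofactors, 5 had a positive log2 fold change, the median was -0.05, and 1 was higher and 1 lower at an unadjusted p under 0.05. Mecom, a transcriptional regulator of the PRDM family, had 20.5 ± 1.16 CPM in the controls and 14.4 ± 1.13 CPM on adenine (SD, n = 4) without overlap, with a log2 fold change of -0.51 (SE 0.13; edgeR adjusted p = 0.172). The higher one was Atf7ip2, a paralog of Atf7ip, with 0.620 ± 0.161 and 1.35 ± 0.965 CPM, and its diets overlapped. Suv39h2, the paralog of Suv39h1, had 0.796 ± 0.0949 and 1.21 ± 0.491 CPM. Of 6 further HUSH and MORC genes, 0 were past an unadjusted p of 0.05 and the median was 0.03. Tasor, the scaffold of HUSH, was level at 15.2 ± 2.24 and 15.4 ± 1.82 CPM, and Pphln1, another subunit, was at 12.1 ± 1.96 and 11.6 ± 1.21 CPM. The 2 with the lowest p in this list were Morc2b with 1.29 ± 0.694 and 2.33 ± 0.962 CPM and Morc4 with 2.94 ± 0.795 and 3.45 ± 1.02 CPM.

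The other HP1 genes, like Cbx5, had negative log2 fold changes, as did most genes of their abundance: 19.9% of all genes tested from 16 to 64 CPM and 18.9% of those at 64 CPM and over were positive. Over 17 alternatives the log2 fold change ran from -0.37 to -0.16 for Cbx1 and from -0.36 to -0.03 for Cbx3. Cbx1, which encodes HP1 beta, was at 49.1, 46.3, 46.7 and 44.9 CPM in the controls and 42.5, 33.5, 37.9 and 37.6 CPM on adenine. No adenine library reached the lowest control, and the log2 fold change was -0.30 (SE 0.13; edgeR adjusted p = 0.274). Cbx3, which encodes HP1 gamma, had a log2 fold change of -0.20 (SE 0.16), with adenine 3 at 79.0 CPM, as high as the highest control, and the other adenine libraries at 51.5 to 60.4 CPM. Of the 17 further heterochromatin genes in that list, 7 had a positive value, the median was -0.11, and 1, Cbx1, was past an unadjusted p of 0.05. Smarcad1, a remodeller of silent chromatin, had 14.0 ± 0.510 and 16.4 ± 1.51 CPM without overlap, and Chaf1b, of the chromatin assembly factor CAF-1, had 1.25 ± 0.706 and 2.27 ± 0.600 CPM.

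DNA methylation genes other than Dnmt1 and Uhrf1 numbered 17, with a median log2 fold change of -0.06. Dnmt3a, a de novo methyltransferase, had 40.7 ± 2.69 CPM in the controls and 37.5 ± 2.64 CPM on adenine, and Tet2, which oxidises methylcytosine, 22.4 ± 1.97 and 25.8 ± 1.82 CPM. At an unadjusted p under 0.05, 0 were higher and 2 lower. These were Zbtb4, a reader of methylated DNA, with 52.2 ± 5.02 and 40.4 ± 2.38 CPM and a log2 fold change of -0.37 (SE 0.13; edgeR adjusted p = 0.246), and Gadd45a, linked to demethylation and to DNA damage, with -0.48 (SE 0.18; edgeR adjusted p = 0.262). Among 11 demethylases of lysine 9, 5 had a positive value, the median was -0.03 and 0 passed an unadjusted p of 0.05. The lowest p-values there were those of Phf2 with -0.24 (SE 0.14) and Kdm1a with -0.17 (SE 0.14).

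KRAB zinc finger genes belong to large families of similar sequence whose reads can be split between copies. Of 14 tested, 10 had a positive log2 fold change, with a median of 0.19, where 10897 of all 20093 genes tested were positive. At an unadjusted p under 0.05 in edgeR, 3 were higher, beside 10.9% of all genes tested. Some of the 14, such as Zfp819, were in the range of low abundance where most genes had positive values. Zfp809, which binds the primer binding site of murine leukaemia viruses and brings TRIM28 to it, was at 12.2, 13.8, 11.5 and 12.7 CPM in the controls and at 18.7, 15.8, 18.0 and 13.4 CPM on adenine. Adenine 4 lay within the controls and the log2 fold change was 0.39 (SE 0.15; edgeR adjusted p = 0.263). The others were Zfp600 with 5.88 ± 1.58 and 10.2 ± 5.10 CPM and Zfp819 with 0.462 ± 0.168 and 1.22 ± 0.565 CPM. Both were highest in adenine 2, the library with the highest receptor share, where Zfp600 reached 17.5 CPM, while adenine 1, 3 and 4 had 6.30 to 9.91 CPM. The log2 fold change of Zfp600 was 0.79 (SE 0.31), 0.40 without adenine 2 and 0.17 with the receptor covariate. Zfp568, a repressor of a placental Igf2 transcript, had 16.7 ± 2.34 and 20.1 ± 0.451 CPM without overlap.

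**Figure D4:**
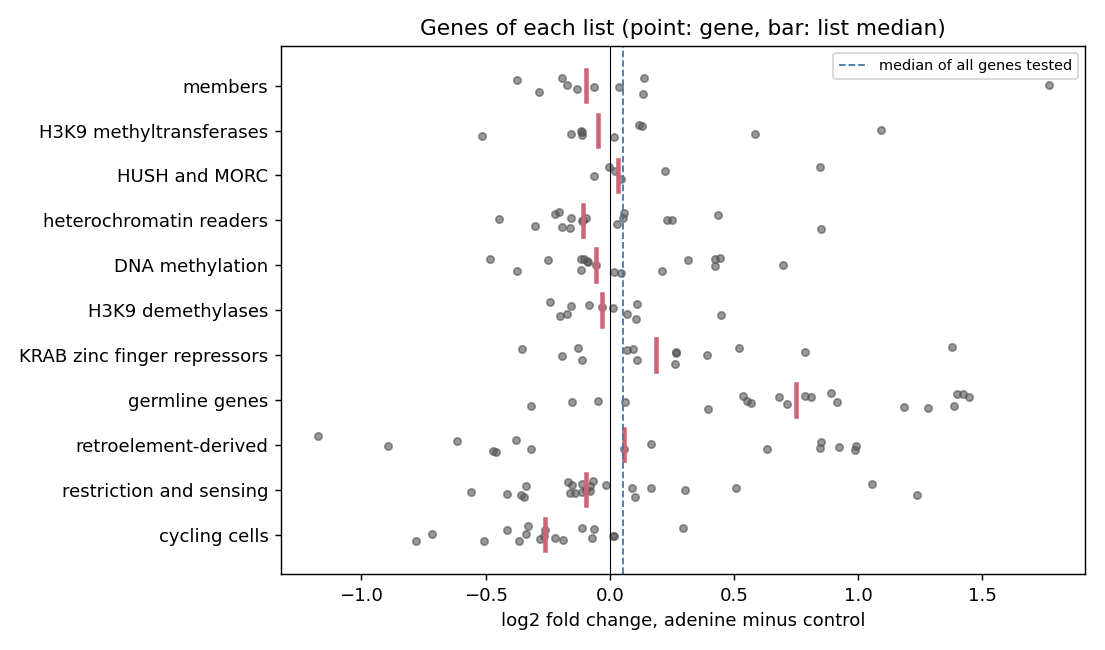
Log2 fold change, adenine minus control, of each tested gene (points) of the 10 members, the 9 further lists without members and the cycling cell list, with list medians (red bars) and the median of all genes tested (dashed, 0.05). The isolated point among the members is Resf1 at 1.77, and the germline list lies furthest right with a median of 0.75.

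Germline genes are held silent in somatic tissue by DNA methylation and lysine 9 methylation, and here they had the highest median of the 9 lists. Of 20 tested, 17 had a positive log2 fold change, the median was 0.75, and 7 were higher and 0 lower at an unadjusted p under 0.05. None passed in edgeR or limma-voom, and Dpep3 passed in DESeq2, which called 153 higher among all genes tested. Dpep3, a testis dipeptidase gene, was at 1.48, 0.779, 0.820 and 2.18 CPM in the controls and 3.0, 4.22, 3.47 and 3.22 CPM on adenine, with a log2 fold change of 1.40 (SE 0.35; edgeR adjusted p = 0.173). Piwil2, which encodes a PIWI protein of the germline, was at 1.26, 0.711, 1.86 and 1.91 CPM in the controls and 2.28, 5.14, 2.10 and 3.63 CPM on adenine (edgeR adjusted p = 0.235), without overlap. Mov10l1, an RNA helicase gene which also has a form in heart muscle, was the exception in abundance, with 52.6 ± 14.0 and 50.9 ± 5.65 CPM.

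19 of these 20 genes had a mean under 4 CPM, the range in which the medians of all genes were 0.80 and 0.58. Without Mov10l1, the list summed to 15.1, 14.1, 20.7 and 21.9 CPM in the controls and to 22.1, 45.2, 20.6 and 29.1 CPM on adenine, so adenine 2 and adenine 4 were highest and adenine 3 lay within the controls. The 1470 olfactory and vomeronasal receptor genes, typical of sensory neurons, took 0.0582, 0.0368, 0.0805 and 0.0923% of counts in the controls and 0.0667, 0.210, 0.0687 and 0.131% on adenine, with the same pair of libraries at the top. With that share as a covariate the median log2 fold change of the germline genes was 0.08.

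**Figure D5:**
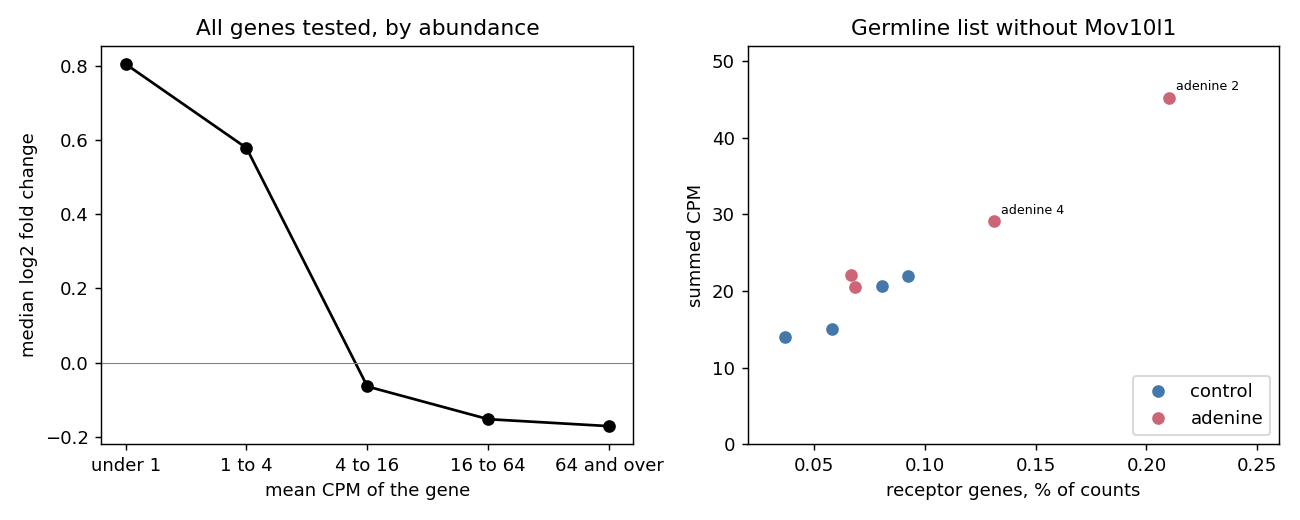
Left, median log2 fold change of all genes tested by mean CPM, falling from 0.80 under 1 CPM to -0.17 at 64 CPM and over. Right, summed CPM of the germline list without Mov10l1 against the share of counts on receptor genes in each library, with adenine 2 at 45.2 CPM and adenine 4 at 29.1 CPM above the rest.

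Genes that descend from retroelements themselves, such as domesticated capsid genes, had values on both sides of 0. Of 15 tested, 8 had a positive value, the median was 0.06, and at an unadjusted p under 0.05 1 was higher and 3 lower. That median was -0.30 with a filter of 1 CPM in 4 libraries and -0.31 with the receptor covariate, so its sign is not settled. Rtl1, an imprinted gene of the placenta and muscle, had 1.34 ± 0.730 and 2.66 ± 0.374 CPM without overlap. Rtl3 had 2.54 ± 1.43 and 1.13 ± 0.336 CPM, with a log2 fold change of -1.18 (SE 0.43; edgeR adjusted p = 0.251), and Rtl8c had 5.65 ± 0.416 and 3.67 ± 1.10 CPM with -0.62 (SE 0.24; edgeR adjusted p = 0.263). Rtl6, the last of the 3 lower genes, had 7.07 ± 1.18 and 5.15 ± 1.01 CPM. Rtl8a and Rtl8b, near-identical to Rtl8c, had -0.32 (SE 0.20) and -0.38 (SE 0.20), and reads of the 3 copies cannot be assigned with certainty.

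Restriction factors and sensors of foreign nucleic acid, which limit retroelements or detect their RNA and DNA, numbered 23. Of these, 7 had a positive log2 fold change, the median was -0.10, and 1 was higher and 2 lower at an unadjusted p under 0.05. Adenine 3 stood apart here too: the list summed to 342 CPM there, to 243 to 249 CPM in adenine 1, 2 and 4, and to 274 to 308 CPM in the controls. Isg15, an interferon-induced gene, reached 7.45 CPM in adenine 3, while its range over the 7 remaining libraries was 1.77 to 5.51 CPM. Without adenine 3 the list median was -0.28, and with upper-quartile factors it was 0.03. Zbp1, a sensor of left-handed nucleic acid, was at 1.74, 0.982, 1.01 and 2.56 CPM in the controls and 2.64, 3.79, 4.36 and 2.28 CPM on adenine, with a log2 fold change of 1.05 (SE 0.37; edgeR adjusted p = 0.246). Rnaseh2c, a subunit of the nuclease that removes RNA from hybrids with DNA, had 23.2 ± 0.988 and 17.4 ± 2.51 CPM without overlap (log2 fold change -0.41, SE 0.14; edgeR adjusted p = 0.242). Bst2, which encodes tetherin, an interferon-induced factor that holds back budding viruses, was the other lower gene, with 21.5 ± 2.39 and 14.5 ± 4.41 CPM.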

How the data were processed

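Heart RNA was sequenced from 4 control and 4 adenine libraries, and the authors deposited raw read counts per gene, in 1 table. Per the submitters' processing notes, FastQC 0.11.9, STAR 2.7.6a and GRCm38.p6 were used. No source used here gives the counting program, its annotation or its strand setting. The series design text speaks of 4 control and 4 treatment samples with no replicates, and p-values measure the spread between libraries, which may be technical.

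Counts were filtered with filterByExpr, scaled by TMM and compared by edgeR 4.0.16 (R 4.3.3) with the quasi-likelihood test and Benjamini-Hochberg adjustment over 20093 genes, with a threshold of 0.05. The steps were tested on simulated data. Alternatives used DESeq2 1.42.0, limma 3.58.1 (limma-voom), other scalings and filters, a replicate block, a receptor covariate and each library left out. Gene positions and exon lengths came from GENCODE M21. Correlations used log2 CPM with a prior count of 2.

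The 10 genes and all lists were chosen with earlier results of these data known. Named genes were the 10, in each list the 2 with the lowest p and a mean of at least 1 CPM, the 5 most like Resf1 by each measure, and the 4 nearest tested neighbours on each side. Other genes named from the lists and neighbours were chosen after their values were seen.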

Additional observations from a re-analysis of the deposited data

Results flagged for a closer look

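Gadd45a, from the DNA methylation list, had its lowest value in adenine 1, with 6.72 CPM. Values in adenine 2, 3 and 4 were close together, between 9.36 and 9.84 CPM. The gap from adenine 1 to the nearest of them was 0.845 of the whole range of the group, above Dixon's 95% critical value for 4 samples. Among 86 groups examined it was the 1 case, and chance marks about 1 in 20 groups.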

How the results depend on the processing

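Resf1 passed the threshold in 17 of 17 alternatives, with log2 fold changes from 1.71 to 1.90, and the other 9 genes in none. Resf1 was chosen for its change in these same libraries, so the refits describe processing only and are no separate evidence. Over all genes, 8 were called higher and 0 lower; counts higher and lower were 18 and 1 with upper-quartile factors, 24 higher with the receptor covariate, 153 and 175 with DESeq2, and 5 higher with limma-voom, while 6 were lower with the robust fit and 1 without a filter. With the replicate block 16 were higher and 16 lower. Libraries of the same number did not deviate together (r from -0.437 to 0.272, and 1 of 8 correlated best with its own number). The labels give no pairing, and so few r values cannot settle whether the numbers stand for one. With single libraries left out, 1 to 37 were higher and 0 to 30 lower: 1 higher without control 1, control 3 or control 4, 3 without control 2 or adenine 1, 37 and 30 lower without adenine 3, and 21 and 6 lower without adenine 4. Without control 2, 2 were lower.

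With upper-quartile factors the log2 fold change was 0.28 for Setdb1 and 0.016 for Morc2a, and list medians were 0.10 for methyltransferases, 0.18 for HUSH and MORC, 0.035 for heterochromatin readers, 0.074 for DNA methylation, 0.11 for demethylases and 0.33 for KRAB zinc finger genes. The DNA methylation median was 0.012 with the stricter filter of 1 CPM in 4 libraries, 0.0148 with the receptor covariate and -0.085 to 0.032 with single libraries left out. The receptor covariate gave medians of 0.079 for germline genes and -0.31 for retroelement-derived genes, which had -0.30 with the stricter filter. DESeq2 called 1 germline gene. The causes were not tested. Depth limits Uhrf1 and Suv39h1 most, with as few as 56 and 62 reads in a library.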
